A study of Mus musculus with 32 samples.

Results

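The keratin genes are described here in mouse gingiva, with jaw bone as the comparison tissue. Members were all genes whose symbol is Krt followed by a number and at most 1 letter, with at least 100 counts summed over the 16 gingiva libraries. This gave 40 of the 54 keratin symbols among the 55359 genes in the table, and of the 14 left out 4 had no count in any gingiva library. The values just inside and just outside the minimum were 109 counts for Krt28 and 93 counts for Krt86. Of the 40 members, 21 encode type I and 19 encode type II keratins, and 20 lie on chromosome 11 and 20 on chromosome 15. All type I members lie on chromosome 11 except Krt18, which lies with the type II genes on chromosome 15.

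The study used wild-type male C57BL/6J mice, 9 weeks old. Control mice (Co) were untreated. In the ligature group (Li) a silk thread was tied around the upper left second molar, a model of periodontitis. Mice of the trauma group (Tra) received a raised layer of composite resin on that tooth, which overloads it in biting, and LiTra mice received both. Gingiva and bone were sequenced as poly(A) RNA, with 4 libraries per group and tissue, 32 in all. The models act on 1 tooth, and the labels do not say how much tissue beside that tooth was taken or whether mice were pooled.

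Keratins are the intermediate filament proteins of epithelial cells, and a filament is built from pairs of a type I and a type II chain. In stratified epithelium the dividing basal cells make Krt5 and Krt14. Cells that leave the basal layer switch to other pairs: Krt4 and Krt13 in soft, non-cornified oral lining, and Krt1, Krt10 and Krt76 in the firm, cornified epithelium of attached gingiva and palate. Krt6a, Krt6b, Krt16 and Krt17 are induced in wounded or rapidly renewing epithelium, and Krt8, Krt18 and Krt19 belong to simple epithelium, glands and, in part, the epithelium that seals the gum to the tooth.

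Total counts were 36913075 to 50740393 per gingiva library and 38163979 to 70793037 per bone library, and no libraries of a group held identical values. Nothing in the labels says that libraries came from separate mice, so the tests measure how far these libraries spread, which may be technical. Levels are given as CPM, counts scaled to the TMM-adjusted size of each library, in each tissue separately. Differences are log2 differences with their standard error (SE) from the quasi-likelihood test of edgeR, two-sided, and genes were called where p, adjusted by Benjamini-Hochberg over all genes tested, was under 0.05. In tissue RNA, fewer cells of a type and less RNA per cell cannot be told apart.

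The gingiva libraries did not all match within a group. The 8 leukocyte markers summed to 647 and 804 CPM in Li 1 and Li 2 and to 241 and 220 CPM in Li 3 and Li 4. The same sum was 116 to 240 CPM in Co, 93.4 to 262 CPM in Tra and 440 to 676 CPM in LiTra. The 9 measured salivary gland markers summed to 5874, 3826, 2824 and 1.43 CPM in Co 1 to 4, while Li libraries held 162 to 8371 CPM, Tra libraries 60.5 to 4274 CPM and LiTra libraries 2.06 to 20.8 CPM. The 14 epithelial markers outside the keratins summed to 10817 to 13662 CPM in Co and 8846 to 12918 CPM in Li. Tra libraries held 10315 to 13259 CPM of them and LiTra libraries 8030 to 8922 CPM, so every gingiva library held epithelium.

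Promoter sequences were looked at because many suprabasal members moved together while Krt14 moved the other way. RefSeq promoters of build GRCm38.p6, 250 bases before to 50 bases after a gene's start, were at hand for 26 members, with 27 starts. Each is given 5′ to 3′ on the gene's own strand, and all 4 genes shown lie on the minus strand. Capitals mark TATAAA in Krt10 and Krt76 and TGANTCA, a letter pattern that AP-1 proteins can bind, in Krt13.
Krt10, chr11:99389315-99389614: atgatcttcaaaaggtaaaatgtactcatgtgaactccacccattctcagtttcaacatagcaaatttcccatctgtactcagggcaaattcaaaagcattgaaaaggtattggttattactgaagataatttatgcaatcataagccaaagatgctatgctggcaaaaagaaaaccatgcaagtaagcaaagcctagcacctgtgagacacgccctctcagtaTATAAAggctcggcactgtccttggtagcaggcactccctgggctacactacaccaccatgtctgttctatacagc
Krt76, chr15:101892871-101893170: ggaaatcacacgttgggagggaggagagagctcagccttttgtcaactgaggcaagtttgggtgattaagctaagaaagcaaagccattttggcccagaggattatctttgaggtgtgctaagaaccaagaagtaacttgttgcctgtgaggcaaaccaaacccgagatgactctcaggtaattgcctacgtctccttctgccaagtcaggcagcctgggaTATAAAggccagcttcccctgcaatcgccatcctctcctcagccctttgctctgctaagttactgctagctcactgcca
Krt13, chr11:100120528-100120827: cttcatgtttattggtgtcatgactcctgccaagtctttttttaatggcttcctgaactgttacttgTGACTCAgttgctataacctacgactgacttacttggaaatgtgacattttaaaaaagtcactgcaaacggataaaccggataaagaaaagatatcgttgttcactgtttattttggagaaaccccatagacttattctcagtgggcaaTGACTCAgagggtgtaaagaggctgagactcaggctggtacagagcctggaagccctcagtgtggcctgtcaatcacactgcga
Krt14, chr11:100205981-100206280: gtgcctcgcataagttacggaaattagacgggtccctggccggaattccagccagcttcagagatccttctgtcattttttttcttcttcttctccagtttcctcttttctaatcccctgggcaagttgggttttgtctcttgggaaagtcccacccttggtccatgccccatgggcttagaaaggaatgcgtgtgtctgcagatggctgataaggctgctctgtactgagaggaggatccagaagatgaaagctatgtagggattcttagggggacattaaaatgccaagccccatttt
TATAAA stood 26 bases before the start of Krt10 and 29 bases before that of Krt76, on the strand shown. TGANTCA stood 183 and 34 bases before this start of Krt13, and 196 bases before its other listed start. The start shown lies downstream of that other start on the gene's strand, and the other window is not printed. Whether the listed starts of Krt13 and Krt14 are their main starts was not looked at. The Krt14 window held none of the 4 patterns searched on both strands, which were TATAAA (the TATA box), TGANTCA (AP-1 proteins), GCCNNNGGC (known from AP-2 proteins) and CCACACCC (known from Klf proteins). TATAAA was found in 11 of the 27 member windows (40.7%), against 13.6% of all 32851 promoter windows. Among these it stood 3 and 1 bases before the start of Krt8, 19 bases after that of Krt42 and 206 bases before that of Krt84. No TATAAA lay in the windows of Krt13, Krt24 and Krt9, also lower in LiTra, or in that of Krt5. Whether such patterns bear on the direction of change was not tested. The other patterns were found in 2, 5 and 3 member windows (7.41%, 18.5% and 11.1%), against 7.81%, 16.6% and 3.56% of all windows. A match is a string of letters and no measured binding site.

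Krt6a and Krt6b are near-identical copies on chromosome 15. Their coding sequences in GENCODE differed at 37 of 1659 aligned bases (97.77% identity), and the longest stretch with no difference ran over 280 bases, coding positions 34 to 313 in both. It is printed because reads from it cannot be assigned to either gene.
Krt6a and Krt6b, shared: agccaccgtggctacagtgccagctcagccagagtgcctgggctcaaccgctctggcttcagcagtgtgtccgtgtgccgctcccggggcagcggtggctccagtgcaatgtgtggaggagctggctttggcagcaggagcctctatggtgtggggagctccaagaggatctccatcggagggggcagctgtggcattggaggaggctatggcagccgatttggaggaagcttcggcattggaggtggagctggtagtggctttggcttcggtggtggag
Of all 100-base windows of their exons, 643 were identical in both genes, 26.6% of those of Krt6a and 30.1% of those of Krt6b. The sources used here do not give how the authors' counting divided such reads, and the separate values of this pair are uncertain. Krt81, Krt83, Krt31 and Krt34 also shared stretches with other hair keratins, 4.136% to 21.04% of their windows with the nearest copy, and Krt14 shared 2.78% with Krt16.

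In untreated gingiva the 40 members held 10.95%, 10.59%, 10.47% and 12.3% of the counts in Co 1 to 4. Per kilobase of exon Krt13 was highest, at 18361 ± 2616 CPM per kb (SD, n = 4), followed by Krt76 at 7504 ± 1389, Krt4 at 6246 ± 1506 and Krt14 at 6208 ± 1069. Krt76, Krt4 and Krt14 did not differ beyond their spread. Krt6a followed at 4813 ± 803 CPM per kb, Krt6b at 3687 ± 721, Krt5 at 2613 ± 403, Krt16 at 2300 ± 522, Krt24 at 1554 ± 246 and Krt10 at 815 ± 132. The soft-lining pair, the cornified-gingiva keratin Krt76, the basal pair and the wound keratins thus stood side by side in control tissue. Below Krt10 came Krt15 at 658 ± 135, Krt17 at 604 ± 169 and Krt78 at 259 ± 76.2 CPM per kb, and Krt23 at 89.3 ± 12.4.

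The total moved less than its make-up. Keratins took 7.472%, 6.857%, 12.18% and 13.06% of the counts in Li 1 to 4, 13.08%, 12.19%, 13.05% and 12.57% in Tra 1 to 4, and 9.277%, 8.574%, 8.926% and 8.376% in LiTra 1 to 4. All LiTra libraries were below all Co libraries, and the Li libraries lay on both sides. Of the keratin counts, the oral suprabasal pair Krt4 and Krt13 took 41.5% ± 5.83 in Co (SD, n = 4), 30.2% ± 5.44 in Li, 41.1% ± 9.30 in Tra and 22.9% ± 7.09 in LiTra. The 11 cornifying suprabasal members took 20.9% ± 2.45, 11.2% ± 5.39, 19.3% ± 2.70 and 8.59% ± 3.30. The 5 stress and wound members took 21.6% ± 2.55, 34.4% ± 4.599, 21.8% ± 4.28 and 39.3% ± 4.94, and the 3 basal members 15.9% ± 2.81, 24.1% ± 6.65, 17.7% ± 2.40 and 29.1% ± 3.19. These shares sum to 100% with the minor groups, so a higher share of 1 group lowers the others. Type II chains made up 48.57% to 52.05% of the keratin counts in the 16 gingiva libraries. No p is given for these sums, which are made from the members.

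**Figure D1:**
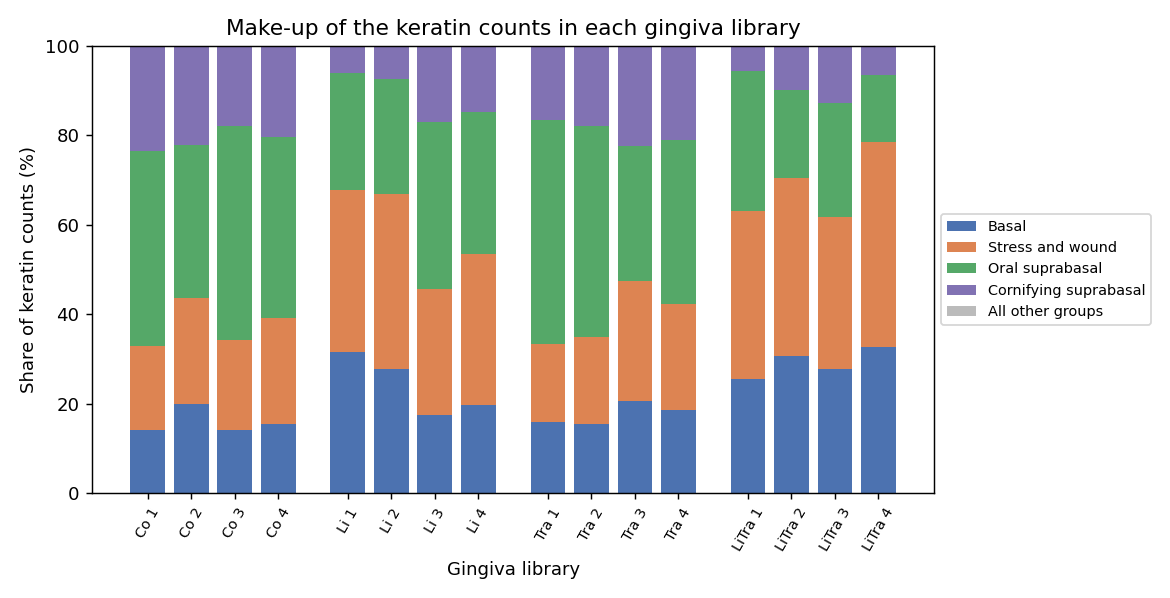
Share of the keratin counts (%) in each of the 16 gingiva libraries, stacked by role group. Basal and stress and wound members together fill more of each LiTra bar than of any Co bar, and the oral and cornifying suprabasal members fill less; Li 1 and Li 2 look like LiTra, and Li 3 and Li 4 lie between.

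With the ligature alone 5 of the 39 members tested were called against control. Krt14 rose, and Krt15, Krt1, Krt9 and Krt12 fell. Of all 20143 genes tested 7.49% were called, 5.19% higher and 2.3% lower, and 5 calls among 39 members are too near that share to be read as a result about keratins as a group. The members' median log2 difference was -0.60, against 0.00 over all genes tested, and 12 members had an unadjusted p under 0.05. The count was 3 without Co 1, without Li 1 or without Li 2, and 10 with DESeq2, which added Krt16, Krt17 and Krt6b as higher and Krt32 and Krt80 as lower. Only 2 were called, Krt9 and Krt12, when the Li and Co libraries were fitted alone. With library totals in place of TMM scaling 3 members were higher and 4 lower.

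Overload alone gave no call among the 39 members tested with edgeR, and none with DESeq2. Over all genes tested 0% were called in this comparison. There were 4 members with an unadjusted p under 0.05, Krt14, Krt5, Krt16 and Krt7, all with higher mean levels in Tra. The members' median log2 difference was 0.21, against -0.01 over all genes tested.

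With ligature and overload together 18 of 39 members were called against control, where 22.9% of all genes were called. Higher in LiTra were 3, Krt14, Krt6b and Krt17, where 11.4% of all genes were called higher. Lower were 15, where 11.5% of all genes were called lower: Krt13, Krt4, Krt76, Krt24, Krt10, Krt80, Krt1, Krt9, Krt15, Krt8, Krt12, Krt31, Krt32, Krt35 and Krt84. Krt35 passed the filter on low counts only through Co and Tra, and without it 14 were lower. The libraries did not overlap for 14 members lower in LiTra and 3 higher, which held for 14% and 14.5% of all genes tested. These sets are not the called ones. The 3 were Krt14, Krt6b and Krt20, which was not called, while Krt17 overlapped. Among the 14 were Krt35 and Krt23, which was not called, while Krt4 and Krt8 overlapped. By role, both oral suprabasal members fell, as did 6 of 11 cornifying and 4 of 9 hair and nail members, the latter with Krt35. Of the stress and wound members 2 of 5 rose and none fell. The median log2 difference was -1.03 over the members and -0.01 over all genes tested. Leaving out 1 library gave 9 to 19 called members, and the 9 came without LiTra 4, when Krt1, Krt10, Krt15, Krt9, Krt31, Krt32 and Krt80 stayed lower and Krt14 and Krt6b stayed higher. By type, 2 type I members rose and 9 of 21 fell, Krt35 among the 9, and 1 type II member rose and 6 of 18 fell.

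**Figure D2:**
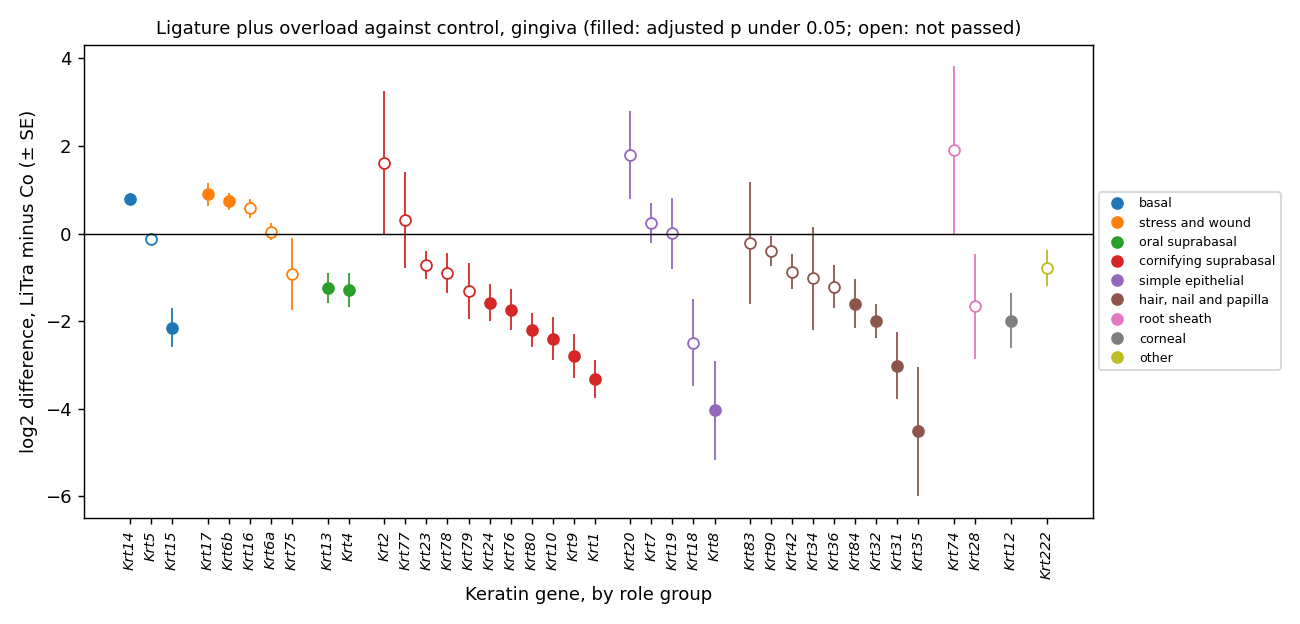
Log2 difference between LiTra and Co in gingiva for each of the 39 members tested, ordered by role group, with SE bars; filled points passed the test and open points did not. The 15 filled points below 0 lie in the suprabasal, hair and nail, corneal and simple groups and at Krt15, and the 3 above 0 are Krt14, Krt6b and Krt17.

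Set against overload alone, LiTra showed 17 lower members, 16 without Krt35, and no higher one. Of all genes tested 18.8% were called, 9.36% higher and 9.44% lower. Of the 17 members, 13 were also lower against Co, Krt35 among them. The comparisons share the LiTra libraries. Only against Tra were Krt5, Krt36, Krt42 and Krt79 called, which does not show that they differed between the comparisons. Without LiTra 4 the count was 11. With library totals in place of TMM scaling 2 members, Krt14 and Krt6b, were higher and 16 lower; that scaling shifted the median of all genes by 0.146 on the log2 scale in this comparison.

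What overload added to the ligature was not resolved at the level of single keratins. No member was called between LiTra and Li, where 0.0844% of all genes were called, and 9 had an unadjusted p under 0.05. The lowest adjusted p was 0.0893, for Krt10. DESeq2 called 3, Krt1, Krt10 and Krt80, all lower in LiTra, and the same 3 were called by edgeR without Li 1. The interaction, the ligature's effect with overload minus its effect without, gave no member and 0% of all genes, with 5 members at an unadjusted p under 0.05. Its lowest adjusted p among the members was 0.323, for Krt10, at a log2 difference of -1.98 ± 0.67.

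**Figure D3:**
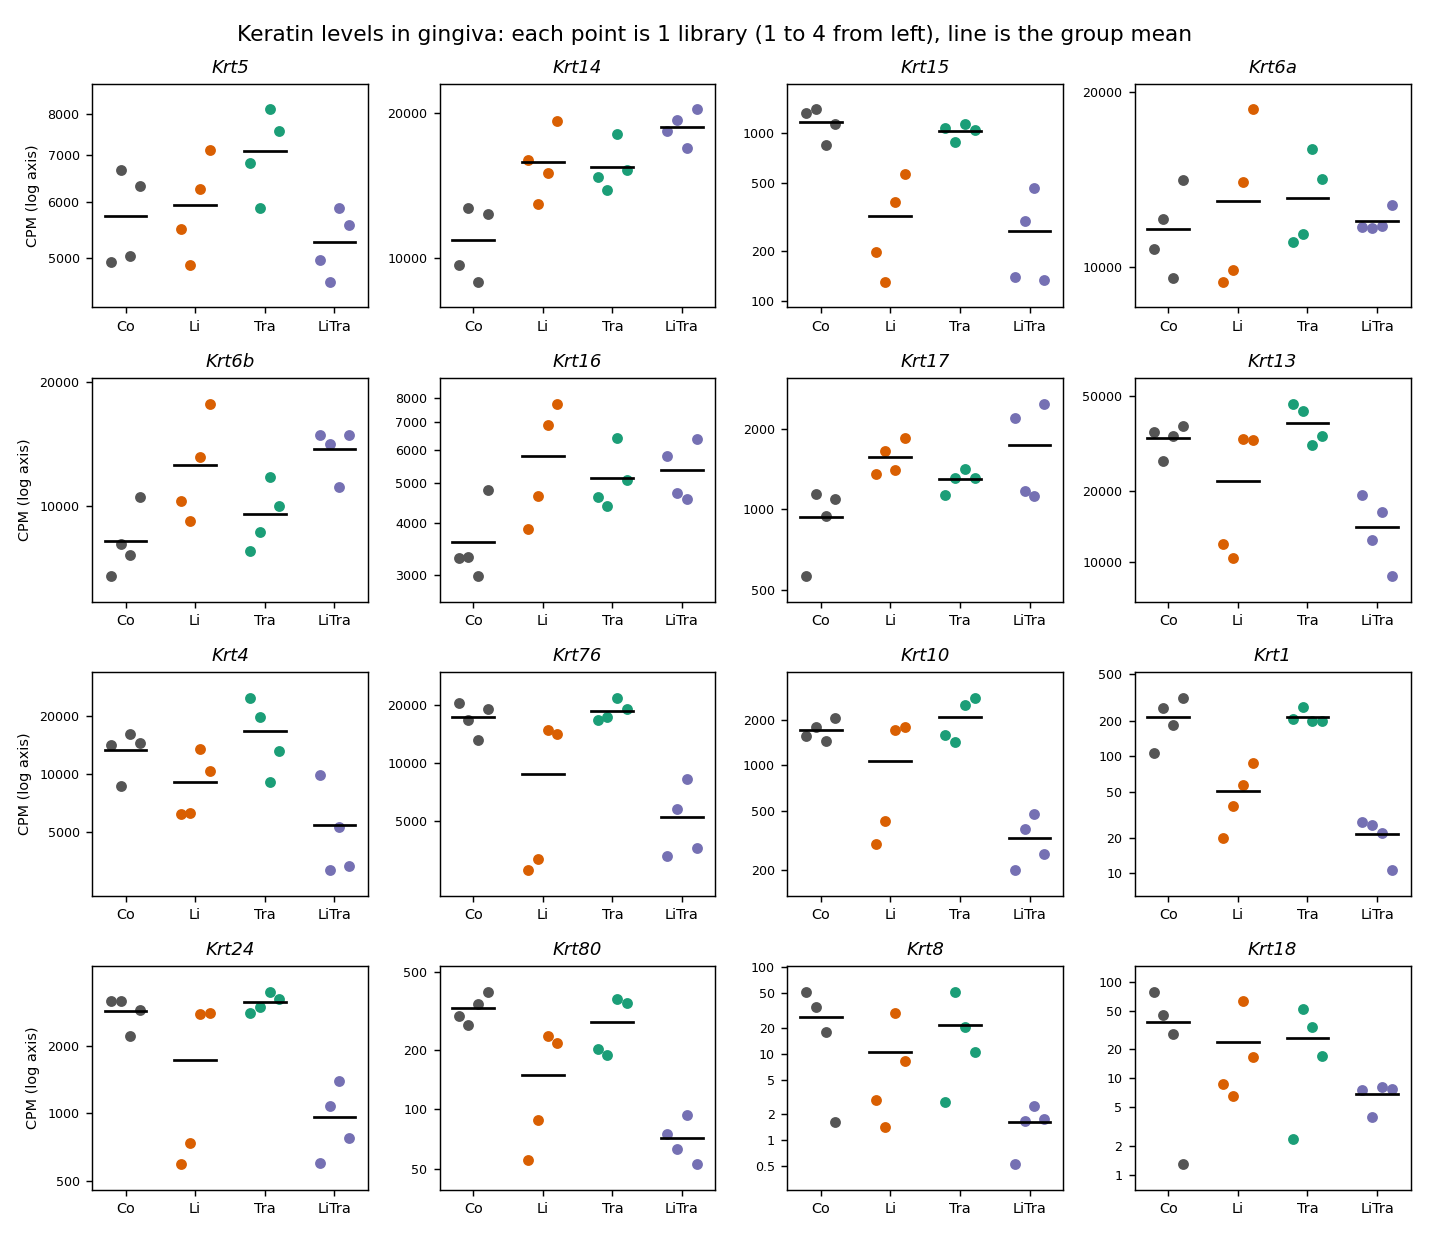
Level in CPM (log axes) of 16 keratins in the 16 gingiva libraries; each point is 1 library, 1 to 4 from left within a group, and lines are group means. Krt1 and Krt15 are low in all Li and LiTra libraries, while Krt76, Krt10, Krt24 and Krt80 are low in Li 1, Li 2 and LiTra and higher in Li 3 and Li 4.

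Among the basal keratins the 2 partners of the basal pair parted. Krt14, the type I chain, was measured at 9693, 12687, 8935 and 12341 CPM in Co 1 to 4, 16024, 12940, 14994 and 19243 CPM in Li, 14765, 13872, 18117 and 15220 CPM in Tra, and 18349, 19370, 16923 and 20361 CPM in LiTra. Every treated library was above every Co library. Krt14 was 1.45-fold higher in Li than in Co by group means (log2 difference 0.53 ± 0.14, adjusted p = 0.029) and 1.72-fold higher in LiTra (0.78 ± 0.14, adjusted p = 0.00162). Its difference in Tra was 0.51 ± 0.14 and did not pass (adjusted p = 0.404). The Li call was lost without Co 1, Co 3, Li 1 or Li 4, without the filter on low counts, and with Li and Co fitted alone (highest adjusted p 0.141).

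Krt5, the type II partner of Krt14, was measured at 4934, 6671, 5034 and 6321 CPM in Co, 5495, 4878, 6274 and 7122 CPM in Li, 6830, 5880, 8131 and 7580 CPM in Tra, and 4967, 4624, 5886 and 5572 CPM in LiTra. The groups overlapped. Its log2 difference from Co was 0.05 ± 0.14 in Li, 0.31 ± 0.14 in Tra and -0.13 ± 0.14 in LiTra, none of which passed. LiTra was lower than Tra by a log2 difference of -0.43 ± 0.14 (adjusted p = 0.0436), a call lost with library totals, without the filter on low counts, and without Co 4, Li 1, Li 3, Tra 1, Tra 3, Tra 4, LiTra 1, LiTra 2 or LiTra 4, each left out alone (highest adjusted p 0.153).

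Krt15, a type I keratin of basal cells that marks a quiescent, stem-like part of the basal layer in skin, moved opposite to Krt14. It was measured at 1312, 1373, 842 and 1127 CPM in Co, 196, 131, 390 and 573 CPM in Li, 1070, 879, 1129 and 1041 CPM in Tra, and 139, 299, 473 and 134 CPM in LiTra. All ligated libraries, Li 3 and Li 4 included, lay below all unligated ones. Krt15 was 3.61-fold lower in Li (log2 difference -1.85 ± 0.44, adjusted p = 0.0217) and 4.45-fold lower in LiTra (-2.16 ± 0.44, adjusted p = 0.00384). In Tra its log2 difference from Co was -0.18 ± 0.43. The Li call was lost without Co 1, Li 1 or Li 2 and with Li and Co fitted alone (adjusted p 0.06 to 0.065).

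Of the stress and wound keratins, Krt6b and Krt17 rose with ligature and overload together. Krt6b was measured at 6771, 8084, 7588 and 10516 CPM in Co, 10276, 9206, 13175 and 17704 CPM in Li, 7762, 8651, 11739 and 10013 CPM in Tra, and 14877, 14092, 11126 and 14841 CPM in LiTra. All LiTra libraries were above all Co libraries. Its log2 difference from Co was 0.74 ± 0.20 in LiTra (adjusted p = 0.0152), 0.61 ± 0.20 in Li (adjusted p = 0.0716) and 0.21 ± 0.20 in Tra. The Li difference passed with library totals and with DESeq2 (lowest adjusted p 0.0218).

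Krt6a gave a different picture from its near copy. Its levels were 10750, 12091, 9593 and 14113 CPM in Co, 9438, 9897, 13969 and 18638 CPM in Li, 11049, 11402, 15973 and 14146 CPM in Tra, and 11729, 11688, 11768 and 12791 CPM in LiTra, and the groups overlapped. The log2 difference from Co was 0.04 ± 0.19 in LiTra, 0.16 ± 0.19 in Li and 0.18 ± 0.19 in Tra. With the counts of both copies summed, an alternative chosen after seeing the data, the difference between LiTra and Co was 0.37 ± 0.19 and did not pass (adjusted p = 0.174). The Krt6b call rests on the authors' division of reads between the copies, and whether another division would change it was not tested. The sum cannot decide this, as it also holds the counts of Krt6a.

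Krt17, a type I wound keratin also made in hair follicles, was measured at 564, 1144, 945 and 1095 CPM in Co, 1356, 1656, 1404 and 1840 CPM in Li, 1133, 1313, 1418 and 1313 CPM in Tra, and 2192, 1170, 1123 and 2480 CPM in LiTra. LiTra 1 and LiTra 4 were highest of all, and LiTra 2 and LiTra 3 lay close to Co 2. Krt17 was higher in LiTra by a log2 difference of 0.89 ± 0.25 (adjusted p = 0.0206), and the call was lost without Co 1, LiTra 1 or LiTra 4 and with LiTra and Co fitted alone (highest adjusted p 0.0796). In Li the difference was 0.74 ± 0.25, with all 4 Li libraries above all 4 Co libraries, and did not pass (adjusted p = 0.0892). In Tra it was 0.47 ± 0.25.

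Krt16, the type I partner of Krt6a, was measured at 3290, 3315, 2988 and 4805 CPM in Co, 3872, 4648, 6877 and 7754 CPM in Li, 4611, 4394, 6407 and 5087 CPM in Tra, and 5804, 4725, 4563 and 6358 CPM in LiTra. Co 4 overlapped each treated group. The log2 difference from Co was 0.69 ± 0.21 in Li (adjusted p = 0.0647), 0.51 ± 0.21 in Tra (adjusted p = 0.703) and 0.58 ± 0.21 in LiTra (adjusted p = 0.065), and none passed. The Li difference passed with library totals, with DESeq2, with a replicate block, without Co 4 and without Li 1 (lowest adjusted p 0.0157). The LiTra difference passed in those same settings and also with a stricter low-count filter, with LiTra and Co fitted alone, and without Li 4 (lowest adjusted p 0.0228). Krt75, a type II keratin of hair follicles and of the tongue's papillae, was the lowest of the group, at 0.887 to 13.8 CPM, and did not pass in any comparison.

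The oral suprabasal pair fell with ligature and overload together. Krt13, the highest keratin of control gingiva and the type I chain of soft oral lining, was measured at 35516, 26606, 34097 and 37522 CPM in Co, 11852, 10416, 33104 and 32790 CPM in Li, 46630, 43340, 31022 and 34100 CPM in Tra, and 19092, 12305, 16187 and 8726 CPM in LiTra. All LiTra libraries were below all Co and Tra libraries, whereas Li 1 and Li 2 fell in the LiTra range and Li 3 and Li 4 in the Co range. Krt13 was 2.375-fold lower in LiTra than in Co (log2 difference -1.25 ± 0.35, adjusted p = 0.018), a call lost without LiTra 4 (adjusted p = 0.0584). In Li the difference was -0.60 ± 0.34 (adjusted p = 0.309) and in Tra 0.21 ± 0.34.

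Krt4, the type II partner of Krt13, was measured at 14106, 8687, 16093 and 14403 CPM in Co, 6167, 6233, 13467 and 10299 CPM in Li, 24768, 19620, 9118 and 13063 CPM in Tra, and 9847, 3179, 5309 and 3346 CPM in LiTra. LiTra 1 lay above Co 2, and the other LiTra libraries lay below all Co libraries. Krt4 was lower in LiTra than in Co by a log2 difference of -1.30 ± 0.39 (adjusted p = 0.0268). The call was lost without Co 1, Co 3, Co 4, LiTra 2, LiTra 3 or LiTra 4, each left out alone (highest adjusted p 0.082). The differences in Li and Tra were -0.56 ± 0.39 and 0.32 ± 0.38.

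In the cornifying suprabasal group all 11 members had lower fitted levels in Li than in Co, as had 49.5% of all genes tested, and 2, Krt1 and Krt9, passed, where 2.3% of all genes were called lower. In LiTra 6 of 11 fell, where 11.5% of all genes did. Krt1, the type II partner of Krt10 in cornified epithelium, was measured at 106, 260, 186 and 315 CPM in Co, 20.02, 37.7, 57.2 and 87.4 CPM in Li, 206, 265, 200.2 and 200.5 CPM in Tra, and 27.7, 26.0, 22.2 and 10.7 CPM in LiTra. No ligated library reached the lowest Co library. Krt1 was 4.29-fold lower in Li (log2 difference -2.10 ± 0.41, adjusted p = 0.00897) and 10.01-fold lower in LiTra (-3.32 ± 0.44, adjusted p = 3.2e-04). Its difference in Tra was 0.01 ± 0.40. The Li call was lost with Li and Co fitted alone (adjusted p = 0.0578).

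Krt10, the type I partner of Krt1, was measured at 1558, 1809, 1451 and 2075 CPM in Co, 302, 428, 1720 and 1804 CPM in Li, 1596, 1417, 2504 and 2811 CPM in Tra, and 202, 375, 474 and 257 CPM in LiTra. Li 1 and Li 2 were in the LiTra range and Li 3 and Li 4 in the Co range, as for Krt13. Krt10 was 5.27-fold lower in LiTra than in Co (log2 difference -2.40 ± 0.50, adjusted p = 0.00388). In Li the difference was -0.70 ± 0.47 (adjusted p = 0.408) and in Tra 0.27 ± 0.47. Thus Krt1 was low in Li 3 and Li 4 where its partner was not.

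Krt76, a type II keratin of cornified palate and gingiva, was measured at 20439, 16758, 13104 and 19093 CPM in Co, 2769, 3160, 14909 and 14218 CPM in Li, 16679, 17251, 21847 and 19053 CPM in Tra, and 3288, 5721, 8217 and 3594 CPM in LiTra. All LiTra libraries were below all Co libraries. Krt76 was 3.33-fold lower in LiTra (log2 difference -1.74 ± 0.47, adjusted p = 0.0166), a call lost without LiTra 1 or LiTra 4 (highest adjusted p 0.0542). In Li the difference was -0.99 ± 0.46 (adjusted p = 0.211) and in Tra 0.11 ± 0.46.

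Krt9, a type I keratin known from palm and sole skin, was low in gingiva and fell in both ligated groups. Its levels were 3.74, 4.05, 1.89 and 3.62 CPM in Co, 0.300, 0.340, 1.05 and 0.467 CPM in Li, 4.78, 1.66, 2.87 and 3.65 CPM in Tra, and 0.481, 0.506, 0.758 and 0.160 CPM in LiTra. No ligated library reached any unligated one. Krt9 was 6.175-fold lower in Li (log2 difference -2.62 ± 0.50, adjusted p = 0.00738) and 6.98-fold lower in LiTra (-2.80 ± 0.50, adjusted p = 0.00186).

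Krt24 and Krt80, suprabasal chains of type I and type II, also fell in LiTra, by log2 differences of -1.58 ± 0.43 (adjusted p = 0.016) and -2.20 ± 0.39 (adjusted p = 0.00184). Krt24 went from 2871 ± 454 CPM in Co to 963 ± 352 CPM in LiTra (SD, n = 4), and Krt80 from 326 ± 55.7 to 71.1 ± 17.8 CPM. The Krt24 call was lost without LiTra 1 or LiTra 4 (highest adjusted p 0.0518). The other 5 members of the group, Krt78, Krt23, Krt79, Krt77 and Krt2, did not pass between LiTra and Co, with log2 differences of -0.90 ± 0.46, -0.71 ± 0.32, -1.30 ± 0.64, 0.31 ± 1.09 and 1.62 ± 1.64. Krt79 passed without LiTra 1 (adjusted p = 0.0302), and Krt23 with LiTra and Co fitted alone (adjusted p = 0.049). Krt2, a type II keratin of late cornifying cells, was at 0 CPM in Co 1 and Co 2 and at 0.0959 and 0.688 CPM in Co 3 and Co 4, and reached at most 2.31 CPM, in Tra 4. It did not pass in any comparison, and its libraries spread widely.

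Simple epithelial keratins were minor in gingiva and spread widely within groups. Krt8, the type II simple keratin, was measured at 51.9, 35.0, 17.9 and 1.61 CPM in Co, 2.90, 1.44, 29.6 and 8.15 CPM in Li, 2.81, 51.7, 20.6 and 10.6 CPM in Tra, and 0.532, 1.68, 2.49 and 1.76 CPM in LiTra. Krt8 passed as lower in LiTra than in Co (log2 difference -4.04 ± 1.13, adjusted p = 0.0188) although Co 4 lay in the LiTra range. In Co its libraries ranked as they did for the salivary gland markers, which summed highest in Co 1 and lowest in Co 4. In Li 1 to 4 the markers summed to 162.5, 204.7, 8371 and 1373 CPM. Both they and Krt8 were highest in Li 3 and next in Li 4, and Li 1 and Li 2 changed order. In Tra and LiTra the rankings differed. The markers summed to 60.5, 533, 4274 and 2649 CPM in Tra 1 to 4. In LiTra 1 to 4 they summed to 10.2, 4.30, 2.06 and 20.8 CPM. Of the 8 tested, 7 were lower in LiTra than in Co and 1 higher, against 11.5% and 11.4% of all genes. Tra 2, high in Krt8, held 18573 CPM of nasal gland markers, against 1.19 to 824 CPM in the other gingiva libraries. The part of glands in the Krt8 call was not tested. The call was lost without Co 1, LiTra 1 or LiTra 4 (highest adjusted p 0.0562), and Li and Tra did not pass against Co (-1.34 ± 0.998 and -0.31 ± 0.98).

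Krt18, the type I partner of Krt8, was measured at 78.2, 45.5, 28.3 and 1.30 CPM in Co, 8.64, 6.50, 62.5 and 16.4 CPM in Li, 2.34, 52.3, 33.8 and 17.0 CPM in Tra, and 7.55, 3.96, 8.03 and 7.70 CPM in LiTra. Co 4 was the lowest library of all. Its difference between LiTra and Co did not pass (-2.49 ± 0.998, adjusted p = 0.0853), but passed with DESeq2, with LiTra and Co fitted alone and without Co 4 (lowest adjusted p 0.0334). Krt19, another type I simple keratin, was at 1.80 to 8.55 CPM in Co and 1.22 to 15.1 CPM in LiTra, with a log2 difference of 0.01 ± 0.80. Krt7 and Krt20 did not pass in any comparison in gingiva.

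Members outside the mouth's own epithelium were detected at low levels. Krt12, the type I keratin of the cornea, was measured at 0.874, 2.08, 1.03 and 1.30 CPM in Co, 0.225, 0.149, 0.0976 and 0.356 CPM in Li, 1.03, 0.129, 0.738 and 1.77 CPM in Tra, and 0.203, 0.460, 0.474 and 0.183 CPM in LiTra. All ligated libraries were below all Co libraries. It was lower in Li (log2 difference -2.66 ± 0.66, adjusted p = 0.0254), a call lost without Co 2, Co 4, Li 1 or Li 2 (highest adjusted p 0.0866), and lower in LiTra (-1.99 ± 0.63, adjusted p = 0.0345). The LiTra call was lost without Co 2, Co 3, Co 4, LiTra 1 or LiTra 4, without the filter on low counts and with a replicate block (highest adjusted p 0.0958). In Li and in LiTra 2 libraries reached the filter's level.

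Among the 10 hair, nail and papilla members 9 were tested, and 4 were lower in LiTra than in Co. Krt31, a type I hair keratin, was measured at 1.58, 0.455, 0.911 and 1.35 CPM in Co, 0.474, 0.106, 0.976 and 0.333 CPM in Li, 0.714, 0.517, 0.695 and 0.471 CPM in Tra, and 0.101, 0.230, 0.189 and 0 CPM in LiTra (log2 difference from Co -3.01 ± 0.77, adjusted p = 0.0124). Only 1 LiTra library of Krt31 reached the filter's level. Krt35, a type I chain of the hair cuticle, rested on very few counts: 24, 8, 21 and 2 in Co, 0, 0, 0 and 3 in Li, 40, 28, 11 and 0 in Tra, and 0, 2, 0 and 0 in LiTra. No Li or LiTra library reached the level the low-count filter asks for, so Krt35 was tested only through Co and Tra, where it is high, and had to differ. Its calls as lower in LiTra than in Co (adjusted p = 0.0389) and than in Tra (adjusted p = 0.0305) support nothing, and no fold is given. Without it 14 members were lower in LiTra than in Co and 16 than in Tra, and 3 of the other hair, nail and papilla members were lower than in Co. Both calls were lost without the filter on low counts and with a replicate block, and without LiTra 1, LiTra 3, LiTra 4 or Tra 2; the first was also lost without Co 1 or Co 3 and the second without Tra 1 (highest adjusted p 0.103). Krt32 and Krt84, keratins of hair cuticle and of nail and tongue papillae, fell from 21.2 ± 3.78 to 5.29 ± 1.18 CPM and from 10.8 ± 1.72 to 3.56 ± 1.15 CPM (SD, n = 4). The Krt84 call was lost without any 1 of the 4 Co or 4 LiTra libraries and in 5 other settings (highest adjusted p 0.119). Hair markers outside the keratins summed to 34.4 to 43.2 CPM in Co and 22.1 to 31.3 CPM in LiTra. Of the 6 tested 2 were lower in LiTra than in Co, where 11.5% of all genes were. Hoxc13 and Gprc5d had no counts in any gingiva group. Krt81 was not tested: its reads lay in Tra 3 alone, at 2.65 CPM. Neither Krt28 nor Krt74, root sheath keratins, passed in any comparison, and Krt222 did not either.

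The falls in LiTra against Tra were of like size for the suprabasal members. Krt1 was lower by a log2 difference of -3.33 ± 0.44 (adjusted p = 6.8e-04), Krt9 by -2.76 ± 0.50 (adjusted p = 0.00289) and Krt10 by -2.67 ± 0.50 (adjusted p = 0.00331). Krt8 was lower by -3.73 ± 1.11 (adjusted p = 0.0307), with all LiTra libraries below all Tra libraries, a call lost without Tra 2, Tra 3 or any 1 of the 4 LiTra libraries (highest adjusted p 0.0839). For Krt15 the difference was -1.98 ± 0.44 (adjusted p = 0.00734), for Krt76 -1.85 ± 0.47 (adjusted p = 0.0151), for Krt4 -1.62 ± 0.39 (adjusted p = 0.0116) and for Krt13 -1.46 ± 0.35 (adjusted p = 0.0101). The Krt76 call was lost without LiTra 4 (adjusted p = 0.0516). Krt14, Krt6b, Krt16 and Krt17 did not pass, at 0.28 ± 0.14, 0.53 ± 0.20, 0.07 ± 0.21 and 0.43 ± 0.25. Krt6b passed as higher with library totals, DESeq2, a replicate block, LiTra and Tra fitted alone, and without Li 4 (lowest adjusted p 0.0198), and Krt14 with library totals (adjusted p = 0.0414).

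Between LiTra and Li the ranges overlapped for all 39 members tested. Krt10 differed by -1.70 ± 0.48, Krt1 by -1.22 ± 0.41 (adjusted p = 0.13), Krt8 by -2.70 ± 1.08 (adjusted p = 0.191) and Krt76 by -0.75 ± 0.46 (adjusted p = 0.422). Krt15, which was low in all Li libraries, differed by -0.30 ± 0.43, Krt14 by 0.25 ± 0.14 and Krt6b by 0.13 ± 0.20. For Krt10, Krt13 and Krt76 the SD over the 4 Li libraries was the largest of the 4 groups.

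Within a library the ratio of 2 chains does not depend on depth. The log2 ratio of Krt5 to Krt14 counts was -0.92 ± 0.07 in Co (SD, n = 4), -1.41 ± 0.12 in Li, -1.13 ± 0.10 in Tra and -1.84 ± 0.23 in LiTra. No treated library overlapped the Co range of -0.97 to -0.83, and the LiTra range lay below the Tra range. For Krt6a to Krt16 the ratio was 1.70 ± 0.13 in Co, against 1.17 ± 0.13 in Li, 1.36 ± 0.09 in Tra and 1.17 ± 0.19 in LiTra, again with no overlap with Co. The Krt4 to Krt13 ratio stayed together: -1.35 ± 0.22 in Co, -1.16 ± 0.41 in Li, -1.30 ± 0.36 in Tra and -1.48 ± 0.42 in LiTra, with overlapping ranges. For Krt1 to Krt10 it was -3.09 ± 0.53 in Co, -4.17 ± 0.60 in Li, -3.21 ± 0.64 in Tra and -3.93 ± 0.78 in LiTra, and the groups overlapped. The Krt8 to Krt18 ratio was -0.33 ± 0.45 in Co, -1.46 ± 0.54 in Li, -0.29 ± 0.49 in Tra and -2.22 ± 1.13 in LiTra. No ligated library overlapped the Co range of -0.66 to 0.32 or the Tra range of -0.71 to 0.26. For Krt6b to Krt17 the group means ran from 2.87 to 3.17. These ratios are descriptions with no test.

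**Figure D4:**
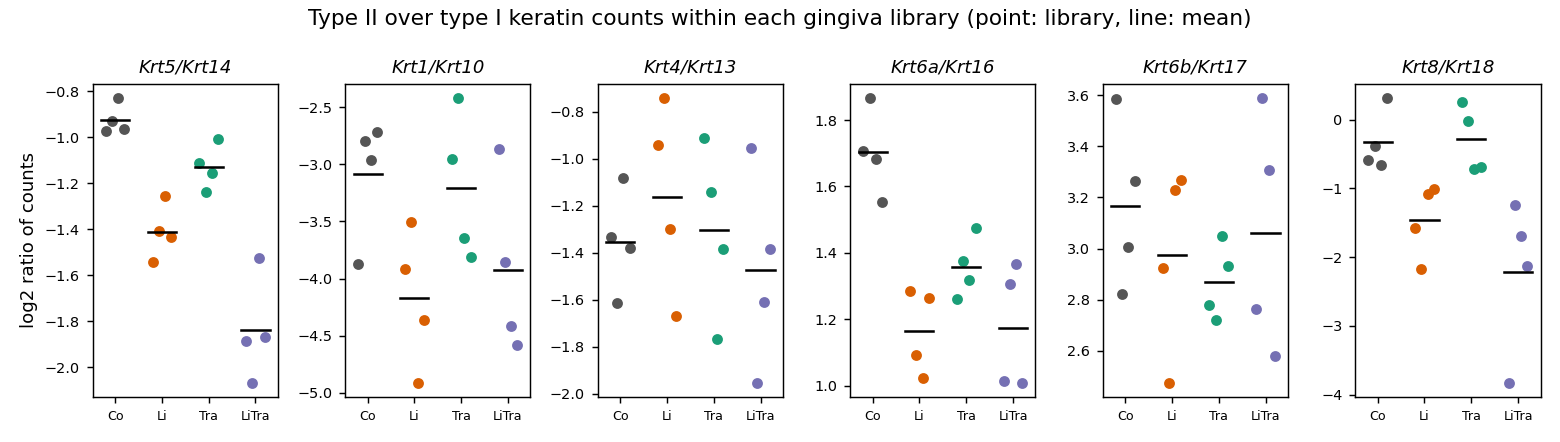
Log2 ratio of type II to type I counts in each gingiva library for 6 keratin pairs; points are libraries and lines are group means. The Krt5/Krt14 ratio is -0.92 in Co and -1.84 in LiTra on average with no overlap, whereas Krt4/Krt13 overlaps in all groups.

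Genes that work with keratin filaments were followed from a list of 35, chosen with earlier results of these data known, of which 34 were tested. They encode desmosome and hemidesmosome proteins, which anchor keratins at cell borders and at the base, the proteins of the cornified envelope, and transcription factors of the epithelium. Against Co, 1 was higher and 2 were lower in Li, none passed in Tra, and 2 were higher and 19 lower in LiTra. Of all genes tested 5.19% were higher and 2.3% lower in Li, and 11.4% and 11.5% in LiTra. The list's median log2 differences were -0.18, -0.06 and -0.57, against 0.00, -0.01 and -0.01 over all genes tested. In Li the linkers Dst and Ppl fell, by log2 differences of -0.60 ± 0.15 (adjusted p = 0.0226) and -0.97 ± 0.26 (adjusted p = 0.0375), and Dsg3, a desmosomal cadherin of basal layers, rose by 0.56 ± 0.16 (adjusted p = 0.0452). The desmosomal cadherin Dsc3 did not pass there (-0.31 ± 0.11, adjusted p = 0.0983).

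In LiTra the 4 partners with the smallest p were all lower. Zfp750, a transcription factor of terminal differentiation, fell by 1.31 on the log2 scale (SE 0.19, adjusted p = 5.6e-04), and was the 1 partner called between LiTra and Li (-1.14 ± 0.19, adjusted p = 0.0452), where 0.0844% of all genes were called. Grhl3, another such factor, fell by 1.43 (SE 0.24, adjusted p = 0.00145). Klf4, a barrier-forming factor, fell by 1.61 (SE 0.28, adjusted p = 0.00168). Evpl, which encodes the cornified envelope protein envoplakin, fell by 1.49 (SE 0.24, adjusted p = 9.2e-04). Trp63, which encodes the master factor of stratified epithelium p63, rose by 0.51 ± 0.11 (adjusted p = 0.00471), as did Dsg3 by 0.86 ± 0.16 (adjusted p = 0.00231). Against Tra, 1 partner was higher and 17 were lower in LiTra, where 9.36% and 9.44% of all genes were. In Tra against Co the smallest p in the list were those of Trp63 (0.37 ± 0.11, adjusted p = 0.465), Gata3 (-1.43 ± 0.64), Dsc3 (0.18 ± 0.11) and Epcam (-0.35 ± 0.30).

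Markers of other cells moved with these keratin changes. Of 8 leukocyte markers, 4 were higher in Li and 7 in LiTra than in Co, and none passed in Tra; of all genes 5.19% were higher in Li and 11.4% in LiTra. The 8 neutrophil markers summed to 7221 and 6042 CPM in Li 1 and Li 2, 1086 and 1017 CPM in Li 3 and Li 4, 181 to 916 CPM in Co and 2298 to 9114 CPM in LiTra. Of these 8 markers, 3 were higher in Li and 4 in LiTra than in Co, and the others did not pass. Of the 14 epithelial markers outside the keratins none passed in Li, and 1 was higher and 8 lower in LiTra, where 11.4% and 11.5% of all genes were. Cdh1, Epcam, Trp63, Itga6, Itgb4, Col17a1, Perp, Dsp, Pkp1 and Jup are also in the partner list, so the counts overlap. The 6 markers of junctional and enamel epithelium summed to 283 to 614 CPM in Co, 160 to 236 CPM in Li and 159 to 294 CPM in LiTra, and 1 of the 4 tested was lower in each ligated group. The epithelial sum was lower in every LiTra library than in any Co library. In that list Trp63 was the 1 called higher, and Itga6 did not pass. What part the cell make-up of the tissue had in the keratin changes was not tested, for Krt14 or any other member.

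Keratins were a far smaller share of the counts in bone and spread widely between its libraries. They took 1.183%, 0.006577%, 0.03633% and 0.01606% of the counts in Co 1 to 4 of bone. The Li libraries ranged from 0.01354% to 0.6941%, those of Tra from 0.04101% to 0.2733% and those of LiTra from 0.09876% to 0.2446%. The highest bone library exceeded the lowest 179.9-fold. Krt14 was at 1559, 5.41, 6.74 and 16.6 CPM in the bone of Co 1 to 4 and at 98.4, 709, 286 and 329 CPM in LiTra. The 9 nasal gland markers summed to 753001, 574137 and 873670 CPM in bone Co 3, Tra 3 and LiTra 1, on the TMM-scaled sizes, and Krt8 was highest there, at 61.6, 170 and 81.7 CPM.

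**Figure D5:**
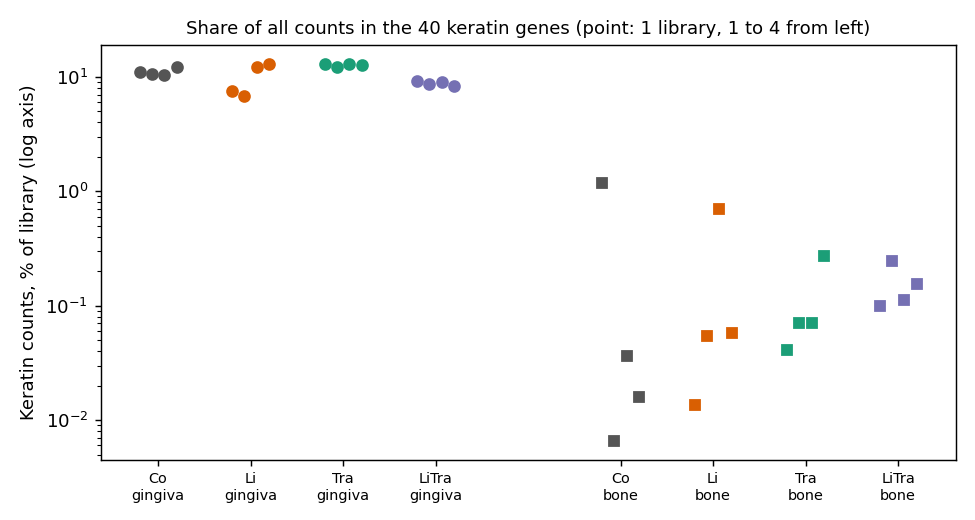
Keratin counts as a percentage of each library (log axis) in gingiva and bone by group; each point is 1 library, 1 to 4 from left. The gingiva libraries lie between 6.857% and 13.08%, and the bone libraries between 0.006577% and 1.183%.

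Of the 40 members 27 were tested in bone, and none was called with edgeR in Li, Tra or LiTra against Co, where 3.51%, 0% and 16.9% of all genes were called. An unadjusted p under 0.05 was reached by 2, 1 and 1 members. The lowest adjusted p was 0.0992, for Krt1 in LiTra (log2 difference -3.99 ± 1.57). Without bone Co 1, the library with the most keratin, 6 members were higher in LiTra than in Co. They were Krt5, Krt14, Krt6a, Krt6b, Krt16 and Krt17, by log2 differences of 3.76 ± 1.12 to 6.08 ± 1.67. The Co libraries left held 0.006577% to 0.03633% of their counts in keratins, below every LiTra library. The share of all genes called in that fit is not given here, so the 6 are not read as a result about keratins. Without Co 3 1 member, Krt1, was lower in LiTra. Differences of effect between the tissues were tested in a fit of all 32 libraries, with 39 members and 22559 genes. That fit took all libraries as independent. The labels do not say whether gingiva and bone libraries of the same group and number came from 1 mouse. No member was called for Li, where 2.04% of all genes were, nor for LiTra, where 12.3% were. The lowest adjusted p were 0.0783 and 0.067, both for Krt12. Without bone Co 1 the counts were 6 and 10, all lower in gingiva relative to bone, so 1 bone library decided these counts. The shares of all genes called in those fits are not given here.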

How the data were processed

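Poly(A) RNA of gingiva and bone was sequenced, 16 libraries each. The authors deposited 1 table of expected counts per gene and tissue, as whole numbers; HISAT2 2.2.1, StringTie 2.1.7, Trimmomatic 0.39, FastQC 0.11.9 and DESeq2 1.32.0 and the build GRCm39 appear as names alone, per the submitters' processing notes. Trauma columns carry the letters CR, read as the composite resin of the treatment label. The sources used here do not give strand use or the handling of reads that match several genes. Symbols came from GENCODE M21 by gene identifier (52083 of 55359 matched), exon lengths and coding sequences from the same release, and promoters from RefSeq, both of the GRCm38 build.

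Low genes were removed with filterByExpr at a minimum count of 10 and a minimum total of 15. The 20143 genes kept in gingiva and 21205 in bone were tested in R 4.3.3 with edgeR 4.0.16 after TMM scaling. The 4 groups of a tissue shared 1 fit, and the test was checked on simulated counts. SE is the log2 difference divided by the square root of F. The members, role groups, partner and marker lists were chosen with earlier results of these data known. Named members were 16 fixed ones and, per gingiva comparison, up to 4 called ones with the largest rise and 4 with the largest fall; from the partners, up to 4 with the smallest p. Krt24, Krt32, Krt80 and Krt84 were named after their values were seen. Alternatives were DESeq2 1.42.0 and its size factors, library totals, no or a stricter filter on low counts, the compared groups alone, a replicate block, leaving out each library, and 2 chosen after seeing the data: Krt6a and Krt6b summed, and 3 bone libraries left out together.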

Additional observations from a re-analysis of the deposited data

Results flagged for a closer look

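Within-group gaps were looked at in 80 groups of 4 libraries, over 20 members in gingiva, and 8 held a library that stood apart; chance gives about 1 in 20. LiTra 4 had 12791 CPM of Krt6a, against 11688 to 11768 CPM in the other LiTra libraries. Tra 2 had 265.2 CPM of Krt1, against 200.2 to 206.3 CPM. LiTra 2 had 3.956 CPM of Krt18, against 7.55 to 8.026 CPM. LiTra 3 had 15.08 CPM of Krt19, against 1.219 to 3.091 CPM. Krt2 was at 0.6878 CPM in Co 4, against 0 to 0.09587 CPM in the other Co libraries, and at 2.23 CPM in LiTra 1, against 0 to 0.1834 CPM. Krt35 was at 0.06666 CPM in Li 4 and at 0.046 CPM in LiTra 2, against 0 in the others of each group.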

How the results depend on the processing

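The shares of all genes called are given for the main fits alone. The number of called members in gingiva for LiTra against Co was 18. It was 15 to 21 over the alternatives that kept all compared libraries and 9 to 19 with 1 library left out (9 without LiTra 4). For LiTra against Tra it was 17, with ranges of 13 to 20 and 11 to 20 (11 without LiTra 4). For Li against Co it was 5, with 10 by DESeq2, 2 with the compared groups alone, and 3 to 7 with 1 library left out (3 without Co 1, Li 1 or Li 2). LiTra against Li gave 0, but 3 by DESeq2 and 0 to 3 with 1 library left out (3 without Li 1). Tra against Co and the interaction gave 0 in each alternative run. In bone LiTra against Co gave 0, and 0 to 6 with 1 library left out (6 without Co 1); with Co 3, Tra 3 and LiTra 1 left out together, chosen after seeing the data, it gave 1, Krt7, as did Li against Co. The tissue difference gave 0, and 0 to 6 for Li and 0 to 10 for LiTra with 1 library left out, the highest without bone Co 1. Krt2, Krt28, Krt31, Krt34, Krt35, Krt74, Krt81 and Krt83 had few counts, and what their depth could detect was not tested.

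A replicate block gave 7, 0, 16, 0 and 14 members for Li, Tra and LiTra against Co and LiTra against Li and Tra, and 0 for the interaction. Over 24 same-number pairs in gingiva the correlation of deviations ran from -0.207 to 0.153 (median 0.011), and 4 exceeded 0.1. Over 72 gingiva pairs with different numbers it ran from -0.364 to 0.277 (median -0.008), and 10 exceeded 0.1. In bone it ran from -0.33 to 0.545 over 24 same-number pairs and from -0.473 to 0.506 over 72 pairs with different numbers. Each pair joined different treatment groups of the same tissue. Whether libraries with the same number were handled together, or came from the same mouse in gingiva and bone, was not tested. With the block the log2 difference was -0.043 for Krt19 in Li against Co, -0.43 for Krt19 in LiTra against Co and 0.252 for Krt2 in Li against Co, each reversed. Under it Krt35 and Krt12 in LiTra against Co, Krt35, Krt36, Krt8 and Krt84 in LiTra against Tra and Krt84 in LiTra against Co lost calls, and of the values followed singly Krt16 in Li and LiTra against Co and Krt6b in LiTra against Tra gained them.

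Single values were followed for 119 pairs of a member and a comparison, those called and those of the named members. Of 40 called ones, 21 lost the call in at least 1 alternative, and none of the 23 that changed sign was called. Among these a call was gained in at least 1 alternative by 12: Krt16, Krt6b and Krt17 in Li against Co, Krt16, Krt18, Krt23 and Krt79 in LiTra against Co, Krt1 and Krt10 in LiTra against Li, and Krt6b, Krt14 and Krt19 in LiTra against Tra. With library totals the reversed values were -0.052 for Krt1 in Tra against Co, 0.045 for Krt19 in LiTra against Li, 0.007 for Krt6a in LiTra against Tra, and 0.018 for Krt6b and 0.015 for Krt15 in the interaction. With Krt6a and Krt6b summed, the value replacing that of Krt6a was 0.009 in LiTra against Li and 0.182 in LiTra against Tra. With 1 library left out, values that changed sign ran as follows. In Li against Co they ran from -0.036 to 0.132 for Krt5, -0.493 to 0.389 for Krt19, -2.857 to 1.642 for Krt2 and -0.055 to 0.279 for Krt6a. In Tra against Co they ran from -0.216 to 0.247 for Krt1, -1.109 to 0.078 for Krt18, -1.227 to 0.243 for Krt8 and -0.004 to 0.2 for Krt76. In LiTra against Co they ran from -1.375 to 0.35 for Krt19, -0.038 to 0.161 for Krt6a, -0.299 to 0.995 for Krt77 and -1.598 to 4.119 for Krt2. In LiTra against Li they ran from -1.424 to 0.512 for Krt19, -0.233 to 0.111 for Krt6a, -0.253 to 0.063 for Krt16, -0.759 to 0.128 for Krt15, -0.751 to 4.494 for Krt2 and -0.065 to 0.316 for Krt17. In LiTra against Tra Krt16 ran from -0.027 to 0.191 and Krt6a, with no change of sign, from -0.198 to -0.024. In the interaction they ran from -3.471 to 1.768 for Krt2, -0.228 to 0.119 for Krt6b and -0.582 to 0.3 for Krt15. The cause of these changes was not tested.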
